A study of Danio rerio with 12 samples.

Results

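Blood stem and progenitor factors are transcription factors and adaptors that build and maintain the cells from which all blood lineages arise. They were represented here by 9 genes chosen by name, runx1, myb, gata2a, gata2b, tal1, lmo2, gfi1aa, spi1b and meis1b, of the 14781 genes in each count table. All 9 were listed in the tables, and 8 had enough counts to be tested among 11840 genes. The exception was runx1, listed at 0 in every library. The 12 RNA-seq libraries came from entire kidneys of EK-strain zebrafish, all adult males aged 4 to 12 months. The 4 groups of 3 libraries were homozygous cebpd knockouts (cebpd KO), their wild types (cebpd WT), homozygous CEN knockouts (CEN KO) and their wild types (CEN WT). CEN is not spelled out in the labels. It is known from the published study as an enhancer linked to cebpd, the gene of a C/EBP transcription factor. All fish, wild types included, underwent cardiomyocyte ablation: tamoxifen was given at 0.5 to 0.7 µM over 17 h, and the kidney was collected 7 days later. The groups therefore compare genotypes after heart injury. The labels name neither the transgene that makes heart muscle sensitive to tamoxifen nor the lesions, and do not say whether a library is 1 fish, so the tests measure the spread between libraries, which may be technical.

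The adult zebrafish kidney is the main blood-forming organ of the fish, so a whole-kidney library mixes marrow with nephrons and interrenal tissue. In vertebrates runx1 and gata2 genes act when the first blood stem cells emerge from endothelium, and myb keeps stem and progenitor cells dividing. Tal1 binds DNA together with GATA factors through the adaptor Lmo2, and the same complex later serves red cell formation. Spi1, also called PU.1, drives progenitors towards neutrophils and macrophages, Gfi1 proteins are repressors that shape stem cell and lineage choice, and Meis proteins are homeobox cofactors of Hox proteins. Because most of these genes stay active in particular daughter lineages or in endothelium and kidney stroma, their level in whole kidney is not a count of stem cells. In such bulk samples fewer cells of a type and less RNA per cell cannot be told apart.

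Libraries held 15793475 to 18104535 counts in genes. Levels are given as CPM, the usual scaling of counts to a common library size, here with TMM factors, and 3 counts were worth 0.157 to 0.199 CPM, a floor that covers counting error only. As a check of the labels, the level of cebpd itself was 10.4, 4.03 and 12.9 CPM in cebpd KO libraries against 316, 466 and 337 CPM in those of cebpd WT, and 67.8, 72.7 and 77.8 CPM in CEN KO against 294, 333 and 212 CPM in CEN WT. By edgeR's quasi-likelihood test cebpd passed between the cebpd genotypes (adjusted p 9.43e-05) but not between CEN KO and CEN WT (adjusted p 0.106). The 1 gene that edgeR called between CEN KO and CEN WT was rbbp8 (adjusted p 0.00365). It had 0.169 ± 0.19 CPM in CEN KO and 6.21 ± 1.44 CPM in CEN WT (SD, n = 3 each). Kidney and marrow were both visible in the marker lists. All 20 of the nephron genes and all 15 of the macrophage genes found in the tables were tested, as were 16 of 17 neutrophil and 14 of 16 erythroid genes. Of these lists' genes in the tables, ba1, a globin, was at 0 in every library. The listed erythroid genes hbaa2, hbba1, hbba2 and hemgn were absent from the tables. Gene lengths were not used, so levels are compared between groups and not between genes.

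The runx1 row held 0 counts in all 12 libraries, out of 206357337 counts in genes. RUNX1 is the DNA-binding partner of Cbfb and a defining factor of blood stem cells in vertebrates. A count of 0 over all libraries would allow at most 0.0145 CPM, but this row cannot be read as a level. Rows at 0 in all libraries numbered 816, or 5.52% of the table. Among them were cct2, a subunit of the chaperonin that folds actin and tubulin, and psmd2, a subunit of the proteasome cap, which cells of every type use. These examples were chosen after their values were seen. The other 7 chaperonin genes had 3693 to 11815 counts per library and the other 15 genes with psmd symbols 145 to 8366. In the tables runx1 is thus listed at 0 in cebpd KO, cebpd WT, CEN KO and CEN WT alike, and no fold change is given. Whether reads of runx1 were assigned elsewhere or dropped was not tested. Of its family, runx3 had 10.1 ± 2.92 CPM in cebpd KO and 8.19 ± 1.28 CPM in cebpd WT, and 10.2 ± 1.17 CPM in CEN KO and 13 ± 0.913 CPM in CEN WT (SD, n = 3 each).

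**Figure D1:**
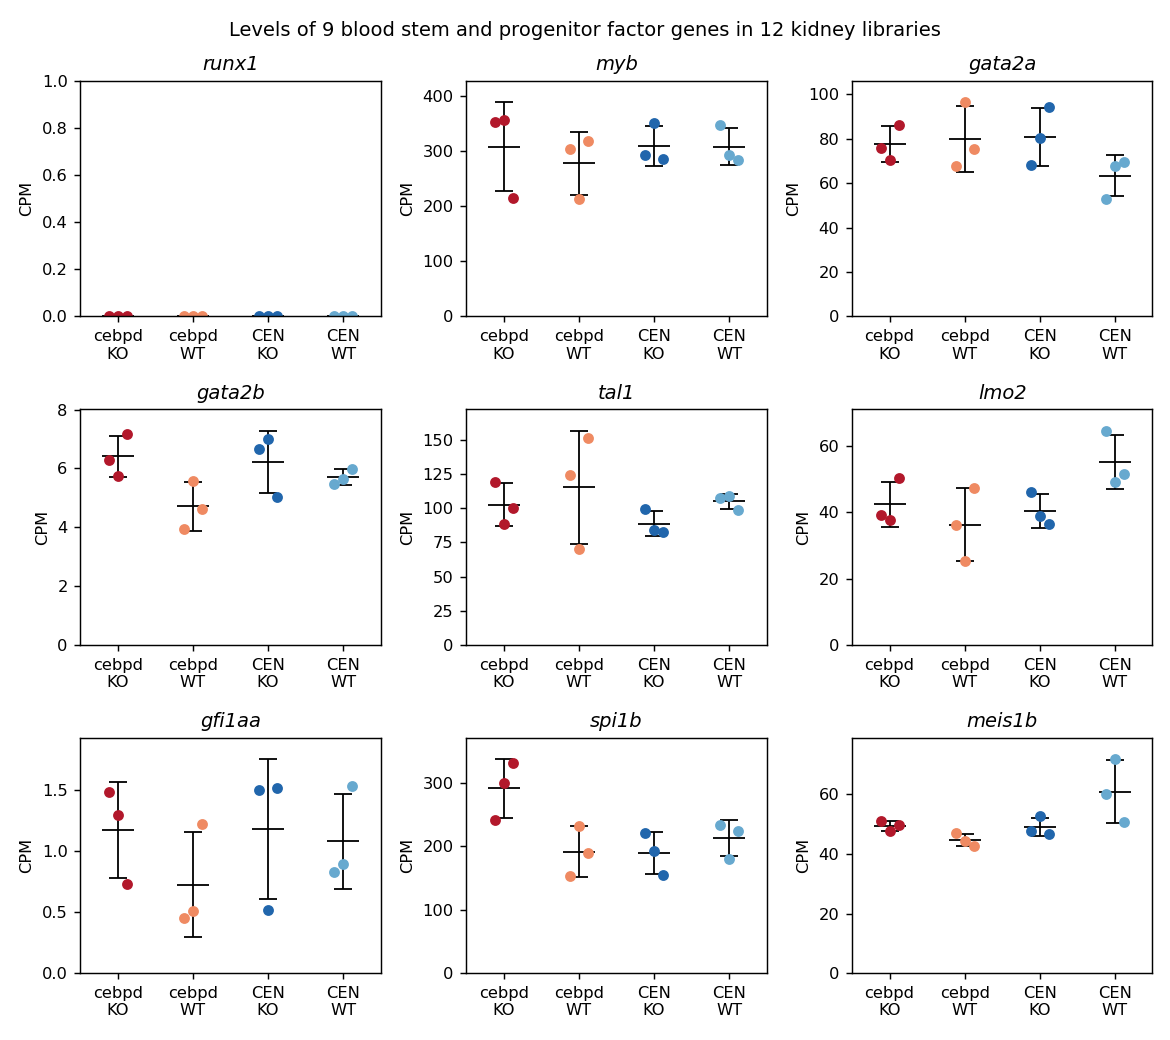
Each panel plots the level (CPM, vertical axis from 0) of 1 gene in the 12 libraries, with a dot per library, a horizontal line at the group mean and bars of 1 SD. The runx1 dots lie at 0 in every group. The 3 cebpd KO dots of spi1b, at 241 to 332 CPM, lie above the dots of the other 3 groups, and the other panels show mostly overlapping groups.

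No factor passed the test in either knockout comparison. In cebpd KO against cebpd WT 0 of the 8 tested factors had an adjusted p under 0.05 by edgeR's quasi-likelihood test, where 0.0845% of all genes did, and 0 passed by DESeq2, where 3.46% of all genes did, or limma-voom, where 0.0845% did. DESeq2 gave gfi1aa no adjusted p in this comparison. Leaving out cebpd KO replicate 3 took edgeR's calls over all genes to 233, against 10 with all libraries, and the called factors stayed at 0. At an unadjusted p under 0.05 there were 2 of the 8, spi1b and gata2b, beside 13.4% of all genes. Of the 8, 6 had a log2 fold change above 0, beside 48.6% of all genes, and the median was 0.19, beside -0.01 over all genes. The libraries did not overlap in 3 of the 8, spi1b, gata2b and meis1b, each with cebpd KO above, beside 16% of all genes in either direction of which 7.8% with cebpd KO above and 8.25% with cebpd KO below. In CEN KO against CEN WT again 0 of the 8 passed by edgeR, DESeq2 or limma-voom, where edgeR called 0.00845%, DESeq2 1.16% and limma-voom 0.0422% of all genes. At an unadjusted p under 0.05 there was 1, meis1b, beside 9.86% of all genes. Of the 8, 4 lay above 0, beside 50.6% of all genes, with a median of -0.08, beside 0.00 over all genes. The libraries did not overlap in 1, lmo2, with CEN KO below, beside 19.3% of all genes in either direction of which 9.57% with CEN KO above and 9.78% with CEN KO below. In the test of the cebpd effect minus the CEN effect 0 of the 8 passed by edgeR, DESeq2 or limma-voom. Of all genes edgeR called 0.0422%, DESeq2 2.91% and limma-voom 0.0676%. By edgeR 3 of the 8, spi1b, meis1b and lmo2, had an unadjusted p under 0.05, beside 12.9% of all genes. Of the 8 differences 7 lay above 0, beside 49% of all genes, with a median of 0.39, beside -0.01 over all genes. This difference also holds the gap between the wild types of the experiments. Mean meis1b was 49.3 CPM in cebpd KO and 48.9 in CEN KO, but 44.5 in cebpd WT and 60.7 in CEN WT. In the same order of groups lmo2 had 42.3, 40.4, 36.2 and 55.1 CPM, and spi1b 291, 189, 191 and 213 CPM.

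**Figure D2:**
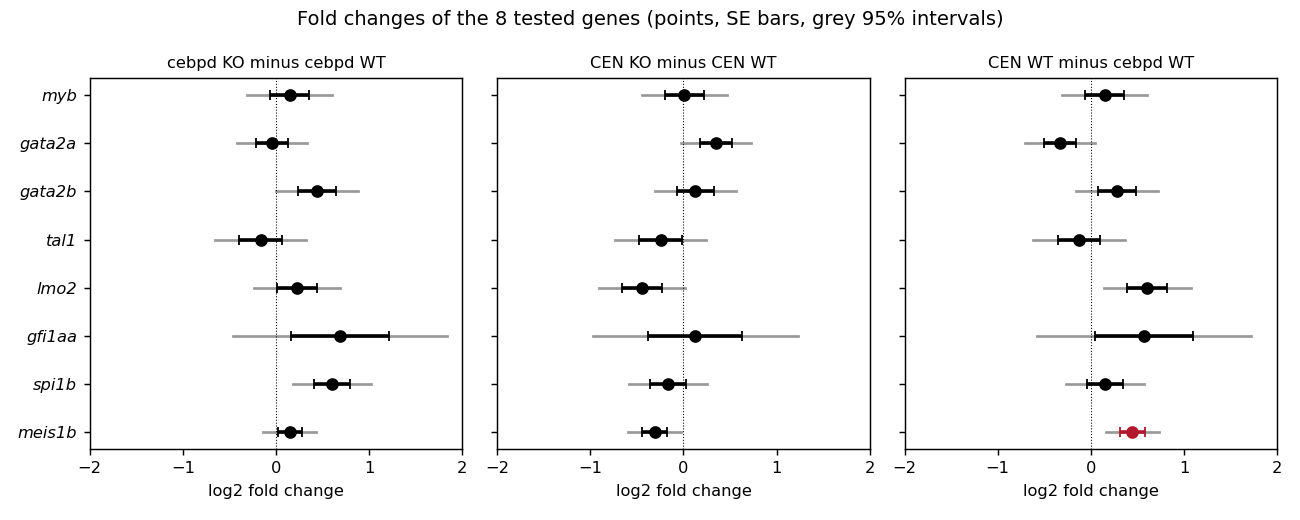
The log2 fold change of each tested factor (horizontal axis) is plotted for cebpd KO minus cebpd WT, CEN KO minus CEN WT and CEN WT minus cebpd WT, with SE bars and grey 95% intervals. The 1 red point, meis1b between the wild types at 0.45, has an adjusted p under 0.05, and most grey intervals cross 0.

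The myeloid factor spi1b was the member with the lowest p in the cebpd comparison. It had 241, 299.9 and 332 CPM in cebpd KO, against 153, 233 and 189 CPM in cebpd WT. The cebpd KO libraries all lay above the cebpd WT libraries, although the lowest of the one and the highest of the other were close. The group means were 291 ± 45.8 CPM in cebpd KO and 191 ± 39.8 CPM in cebpd WT (SD, n = 3 each), 1.52-fold. The log2 fold change was 0.60 ± 0.19 (SE, 95% interval 0.19 to 1.02), with an adjusted p of 0.191, so spi1b is not called. Over the alternatives its log2 fold change ran from 0.46 to 0.77 and its adjusted p from 0.0631 to 0.529.

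In the CEN experiment spi1b had 221, 192 and 155 CPM in CEN KO, against 234, 180 and 224 CPM in CEN WT. These groups overlapped, with a log2 fold change of -0.17 ± 0.19 (SE, 95% interval -0.59 to 0.25, adjusted p 0.839). The difference between the cebpd and the CEN effect was 0.77 ± 0.27 on the log2 scale (SE, 95% interval 0.18 to 1.36) and did not pass, at an adjusted p of 0.255. From high to low the groups stood in the order cebpd KO, CEN WT, cebpd WT, CEN KO, and the 3 lower groups overlapped one another. Its duplicate spi1a, the other PU.1 gene of zebrafish, had 101 ± 23.8 CPM in cebpd KO and 71.3 ± 13.9 CPM in cebpd WT (SD, n = 3 each), a log2 fold change of 0.49 ± 0.19 (SE, adjusted p 0.265). The lowest cebpd KO library, at 73.0 CPM, lay under the highest cebpd WT library, at 85.9 CPM. In the CEN experiment spi1a had 72.4 ± 5.27 CPM in CEN KO and 68.6 ± 5.97 CPM in CEN WT (SD, n = 3 each). The log2 fold change there was 0.08 ± 0.19 (SE, adjusted p 0.954).

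Levels of neutrophil genes ran in parallel with spi1b. The summed level of the 17 neutrophil genes in the tables was 7506 to 9156 CPM in cebpd KO, against 4246 to 5673 CPM in cebpd WT, and 4728 to 6413 CPM in CEN KO, against 5264 to 7871 CPM in CEN WT. Of the 16 tested neutrophil genes 15 lay above 0 in the cebpd comparison, beside 48.6% of all genes, with a median of 0.61. By edgeR 0 were called, beside 0.0845% of all genes. Beside 13.4% of all genes, 12 of the 16 had an unadjusted p under 0.05, all with cebpd KO above. The lowest p among them belonged to cpa5, a carboxypeptidase gene, at 1190 ± 236 CPM in cebpd KO and 541 ± 177 CPM in cebpd WT (SD, n = 3 each, adjusted p 0.0849), and to s1pr4, a sphingosine phosphate receptor gene, at 172 ± 19.5 CPM in cebpd KO and 106 ± 11.8 CPM in cebpd WT (SD, n = 3 each, adjusted p 0.0874). In each of the 4 groups the libraries stood in the same order by spi1b as by the summed neutrophil level. Per 1000 CPM of neutrophil genes, spi1b had 34.5 ± 2.09 CPM in cebpd KO and 38.0 ± 2.6 CPM in cebpd WT, and 33.8 ± 0.917 CPM in CEN KO and 34.6 ± 5.13 CPM in CEN WT (SD, n = 3 each). The libraries ran from 32.1 to 36.2 CPM in cebpd KO and from 36.0 to 41.0 CPM in cebpd WT on this relative scale, and overlapped. Of the macrophage genes 14 of 15 lay above 0, with a median of 0.47. Their summed level was 2470 to 3618 CPM in cebpd KO and 2091 to 3004 CPM in cebpd WT, and these ranges overlapped. By this sum the libraries stood in the order of spi1b in cebpd WT, but not in cebpd KO, CEN KO or CEN WT. By edgeR 0 of the 15 were called. At an unadjusted p under 0.05 there were 3 with cebpd KO above and 1 below. That 1, slc7a7, had the lowest p of the list, at 232 ± 40.2 CPM in cebpd KO and 362 ± 61.5 CPM in cebpd WT (SD, n = 3 each, adjusted p 0.126). It also had the lowest p of the list in the CEN comparison, with an adjusted p of 0.236 by edgeR. Its level there was 175 ± 24.9 CPM in CEN KO and 273 ± 24.6 CPM in CEN WT (SD, n = 3 each). The part of neutrophils and macrophages in the spi1b values was not tested. The genes most like spi1b over the 12 libraries were s1pr4, itself in the neutrophil list, mfng, a fringe enzyme that modifies Notch, and ptpn6, a phosphatase of blood cells, with Pearson r of 0.93, 0.93 and 0.91 between log2 CPM values. After removal of the group means r was 0.94, 0.86 and 0.81. These r values describe libraries that share a tissue mixture and were the highest of 9879 genes compared.

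**Figure D3:**
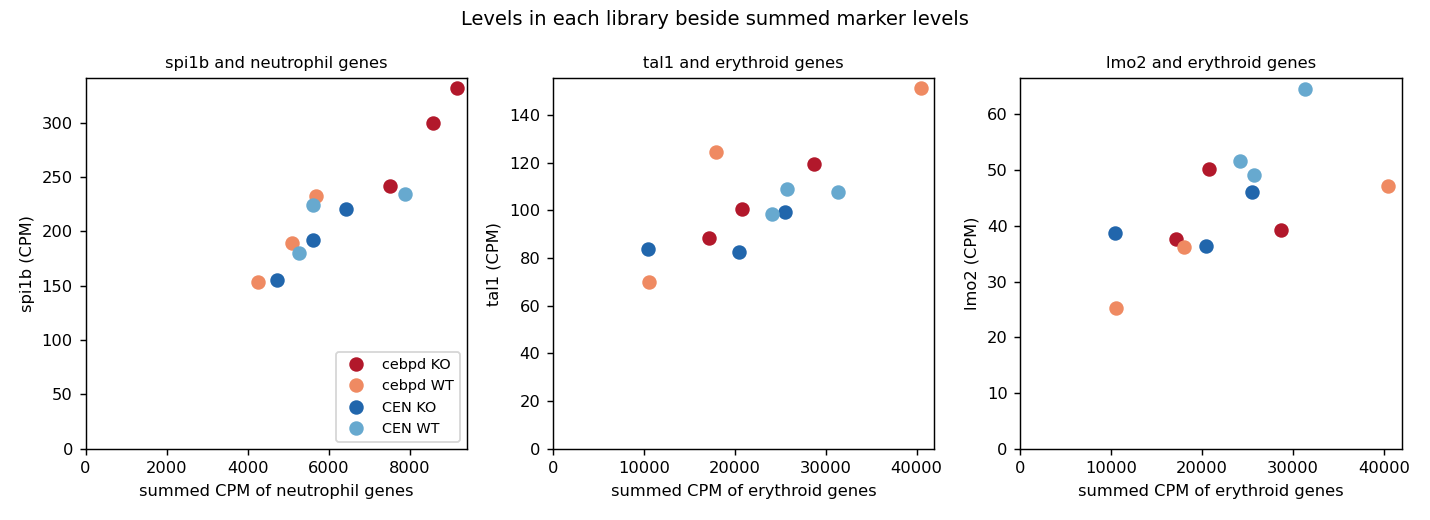
For each of the 12 libraries the CPM of spi1b is plotted against the summed CPM of 17 neutrophil genes, and the CPM of tal1 and of lmo2 against the summed CPM of 16 erythroid genes, all axes from 0, with a colour per group. The spi1b points climb with the neutrophil sum in all 4 groups, from 153 CPM beside a sum of 4246 CPM to 332 CPM beside a sum of 9156 CPM. The tal1 and lmo2 points scatter more, with the lowest of each at a sum of 10540 CPM.

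The GATA2 duplicates gata2a and gata2b stood in different group orders, and neither passed the test. In zebrafish gata2b acts in the endothelium that gives rise to blood stem cells, and gata2a is known for roles in blood vessels and neurons. The level of gata2b was 6.3, 5.75 and 7.16 CPM in cebpd KO, against 3.93, 5.58 and 4.63 CPM in cebpd WT, from 70 to 108 counts per library. All cebpd KO libraries were above all cebpd WT libraries, by a narrow margin between the nearest pair. The log2 fold change was 0.44 ± 0.20 (SE, 95% interval 0.00 to 0.88) with an adjusted p of 0.371. In the CEN experiment gata2b had 6.65, 7.00 and 5.03 CPM in CEN KO, against 5.49, 5.65 and 5.99 CPM in CEN WT. There the groups overlapped, with a log2 fold change of 0.13 ± 0.20 (SE, 95% interval -0.31 to 0.56, adjusted p 0.909). From high to low the order was cebpd KO, CEN KO, CEN WT, cebpd WT, and each neighbouring pair overlapped.

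The level of gata2a was 76.0, 70.3 and 86.3 CPM in cebpd KO, against 67.7, 96.4 and 75.3 CPM in cebpd WT. These groups overlapped, with a log2 fold change of -0.04 ± 0.17 (SE, 95% interval -0.41 to 0.33, adjusted p 0.954). It was 68.0, 80.3 and 94.2 CPM in CEN KO, against 52.9, 67.8 and 69.5 CPM in CEN WT. The lowest CEN KO library lay under the highest CEN WT library, and the log2 fold change was 0.35 ± 0.17 (SE, 95% interval -0.02 to 0.72, adjusted p 0.54). It was 0.23 without CEN KO replicate 3 and also without CEN WT replicate 1. CEN KO, cebpd WT and cebpd KO stood within 77.6 to 80.8 CPM on average, and CEN WT was lowest at 63.4 ± 9.13 CPM (SD, n = 3), without overlap with cebpd KO, its neighbour in this order. Most like gata2a were hipk3a, cldn7b, a claudin of tight junctions, and aldh2.1, an aldehyde dehydrogenase, with r of 0.88, 0.88 and 0.87. Most like gata2b were cd99, cited4b and lpar2a, a receptor for lysophosphatidic acid, with r of 0.89, 0.88 and 0.87.

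The complex partners tal1 and lmo2 varied more within the cebpd wild types than between the cebpd genotypes. In cebpd KO tal1 had 119, 88.3 and 100.4 CPM, against 124, 70.0 and 151 CPM in cebpd WT. The cebpd WT libraries enclosed all the cebpd KO libraries, and the log2 fold change was -0.17 ± 0.23 (SE, 95% interval -0.66 to 0.33, adjusted p 0.816). In CEN KO it had 99.2, 83.9 and 82.8 CPM, against 108, 109 and 98.7 CPM in CEN WT. The highest CEN KO library lay just above the lowest CEN WT library, and the log2 fold change was -0.25 ± 0.23 (SE, 95% interval -0.74 to 0.25, adjusted p 0.785). From high to low the groups were cebpd WT, CEN WT, cebpd KO and CEN KO, and each neighbouring pair overlapped.

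In cebpd KO lmo2 had 39.3, 37.6 and 50.2 CPM, against 36.2, 25.2 and 47.2 CPM in cebpd WT. The groups overlapped, with a log2 fold change of 0.23 ± 0.21 (SE, 95% interval -0.24 to 0.69, adjusted p 0.722). It was 0.022 without cebpd WT replicate 2 and 0.46 without cebpd WT replicate 3, and leaving out cebpd KO replicate 3 gave 0.11. In CEN KO it had 46.2, 38.7 and 36.4 CPM, against 64.5, 49.2 and 51.6 CPM in CEN WT. All CEN KO libraries were below all CEN WT libraries, 1.36-fold on the fitted scale. The log2 fold change was -0.45 ± 0.21 (SE, 95% interval -0.91 to 0.02) with an adjusted p of 0.53, and over the alternatives the adjusted p ran from 0.279 to 0.998. The cebpd effect minus the CEN effect was 0.67 ± 0.30 (SE, 95% interval 0.02 to 1.33) with an adjusted p of 0.376. In the order CEN WT, cebpd KO, CEN KO, cebpd WT each neighbouring pair overlapped.

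Erythroid genes varied beside tal1. The summed level of the 16 erythroid genes in the tables was 17150 to 28733 CPM in cebpd KO, against 10540 to 40454 CPM in cebpd WT, and 10433 to 25542 CPM in CEN KO, against 24129 to 31374 CPM in CEN WT. The cebpd WT library with the lowest tal1 and lmo2, replicate 2, had the lowest erythroid sum of its group, and replicate 3, with the highest of both, had the highest sum. In 2 of the 4 groups the libraries stood in the same order by tal1 as by the erythroid sum, those of cebpd KO and cebpd WT, and for lmo2 this held in 1, cebpd WT. Without cebpd WT replicate 2 the log2 fold change of tal1 in the cebpd comparison was -0.42, and without cebpd WT replicate 3 it was 0.08. Of the 14 tested erythroid genes 11 lay below 0 in the cebpd comparison and 13 in the CEN comparison, with medians of -0.19 and -0.31. By edgeR 0 were called, and 1 in each comparison, lying above 0, had an unadjusted p under 0.05. Of all genes 13.4% had in the cebpd and 9.86% in the CEN comparison. The part of the erythroid genes in the tal1 and lmo2 values was not tested. The genes most like tal1 were urod and slc25a37, a heme synthesis enzyme and a mitochondrial iron carrier, both in the erythroid list, and clgn, a chaperone of the endoplasmic reticulum, with r of 0.95, 0.94 and 0.94 and, after removal of group means, 0.96, 0.96 and 0.94. The genes most like lmo2 were tmem256, itfg2 and gtf3c3, a subunit of an RNA polymerase III factor, with r of 0.94, 0.93 and 0.92. The erythroid GATA factor gata1a had 165 ± 51.4 CPM in cebpd KO and 196 ± 71.8 CPM in cebpd WT, and 167 ± 48.0 CPM in CEN KO and 209 ± 65.9 CPM in CEN WT (SD, n = 3 each).

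The progenitor factor myb had group means from 278 to 310 CPM, while its libraries ran from 213 to 357 CPM. It had 352, 357 and 215 CPM in cebpd KO, against 304, 213 and 318 CPM in cebpd WT. Each of these groups had 1 library well below its other 2, and the log2 fold change was 0.15 ± 0.21 (SE, 95% interval -0.31 to 0.60, adjusted p 0.827). It had 293, 352 and 286 CPM in CEN KO, against 348, 294 and 284 CPM in CEN WT. These ranges nearly coincided, with a log2 fold change of 0.01 ± 0.21 (SE, 95% interval -0.45 to 0.47, adjusted p 0.997). Mean levels were 308 ± 80.9 CPM in cebpd KO, 278 ± 56.9 CPM in cebpd WT, 310 ± 36.4 CPM in CEN KO and 309 ± 34.3 CPM in CEN WT (SD, n = 3 each), and all neighbouring groups overlapped. Cell division genes are given beside myb, since progenitors divide. Of 24 tested, 14 lay below 0 in the cebpd comparison with a median of -0.04, and 20 in the CEN comparison with a median of -0.55. By edgeR 0 were called in either. An unadjusted p under 0.05 was found for 4 in the cebpd comparison, all with cebpd KO below, beside 13.4% of all genes. In the CEN comparison it was found for 11, 10 of them with CEN KO below, beside 9.86% of all genes. The summed level of the cell division genes was 1034 and 1043 CPM in CEN KO replicates 2 and 3. In CEN KO replicate 1 it was 2045 CPM, within the 1483 to 2214 CPM of CEN WT. In cebpd WT it ran from 1476 to 2836 CPM, a range that held all cebpd KO libraries. The genes most like myb were prdm4, ttc39c and s100s, each with r of 0.88.

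Counts of gfi1aa were too low for a firm comparison. The repressor gene gfi1aa had 24, 24 and 11 counts in cebpd KO libraries, against 8, 8 and 20 counts in cebpd WT. It had 27, 9 and 25 counts in CEN KO, against 15, 17 and 27 counts in CEN WT. Both pairs of groups overlapped. In CPM these were means of 1.17 ± 0.391 in cebpd KO and 0.725 ± 0.428 in cebpd WT, and of 1.18 ± 0.569 in CEN KO and 1.08 ± 0.388 in CEN WT (SD, n = 3 each). The log2 fold changes were 0.69 ± 0.53 (SE, 95% interval -0.46 to 1.84, adjusted p 0.637) in the cebpd comparison and 0.13 ± 0.51 (SE, 95% interval -0.97 to 1.23, adjusted p 0.974) in the CEN comparison. Without cebpd WT replicate 3 the log2 fold change in the cebpd comparison was 1.28, and without cebpd WT replicate 1 it was 0.43. From high to low the groups were CEN KO, cebpd KO, CEN WT and cebpd WT, all neighbours overlapping. Its duplicate gfi1ab had 12.3 ± 0.941 CPM in cebpd KO and 8.42 ± 1.39 CPM in cebpd WT (SD, n = 3 each), a log2 fold change of 0.54 ± 0.16 (SE, adjusted p 0.165). In the CEN experiment gfi1ab had 15.1 ± 1.28 CPM in CEN KO and 14.5 ± 0.753 CPM in CEN WT (SD, n = 3 each), a log2 fold change of 0.06 ± 0.16 (SE, adjusted p 0.955). Most like gfi1aa were ighmbp2, derl3 and hoxb8b, with r of 0.87, 0.86 and 0.82.

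The homeobox cofactor meis1b was the steadiest member within groups other than CEN WT. It had 51.0, 47.5 and 49.6 CPM in cebpd KO, against 46.8, 44.1 and 42.7 CPM in cebpd WT. All cebpd KO libraries were above all cebpd WT libraries, by a small step, a log2 fold change of 0.15 ± 0.13 (SE, 95% interval -0.14 to 0.43, adjusted p 0.701). It had 47.6, 52.5 and 46.7 CPM in CEN KO, against 59.9, 71.5 and 50.6 CPM in CEN WT. The highest CEN KO library lay above the lowest CEN WT library, and the log2 fold change was -0.31 ± 0.13 (SE, 95% interval -0.59 to -0.03, adjusted p 0.458). Without CEN WT replicate 2 it was -0.17, with an adjusted p of 0.969 by edgeR. The cebpd effect minus the CEN effect was 0.46 ± 0.18 (SE, 95% interval 0.05 to 0.86) with an adjusted p of 0.326. In the order CEN WT, cebpd KO, CEN KO, cebpd WT each neighbouring pair overlapped. Its duplicate meis1a, at a low level, had 2.17 ± 0.47 CPM in cebpd KO and 2.23 ± 0.302 CPM in cebpd WT, and 2.96 ± 0.43 CPM in CEN KO and 2.7 ± 0.358 CPM in CEN WT (SD, n = 3 each). The log2 fold changes of meis1a were -0.04 ± 0.26 (SE, adjusted p 0.97) in the cebpd and 0.14 ± 0.25 (SE, adjusted p 0.927) in the CEN comparison, and those of meis2b 0.13 ± 0.20 (SE, adjusted p 0.84) and 0.36 ± 0.20 (SE, adjusted p 0.596). Another relative, meis2a, stood in the same group order as meis1b, at 39.3 ± 1.33 CPM in cebpd KO and 29.9 ± 5.29 CPM in cebpd WT, and at 37.2 ± 3.61 CPM in CEN KO and 53.7 ± 4.05 CPM in CEN WT (SD, n = 3 each). For meis2a the log2 fold changes were 0.39 ± 0.14 (SE, adjusted p 0.24) in the cebpd and -0.53 ± 0.14 (SE, adjusted p 0.236) in the CEN comparison, and their difference of 0.92 ± 0.20 (SE) had an adjusted p of 0.104. Most like meis1b were slc43a1b, an amino acid transporter, chia.5, a chitinase, and tmem176, each with r of 0.92, or 0.76, 0.82 and 0.88 after removal of group means.

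**Figure D4:**
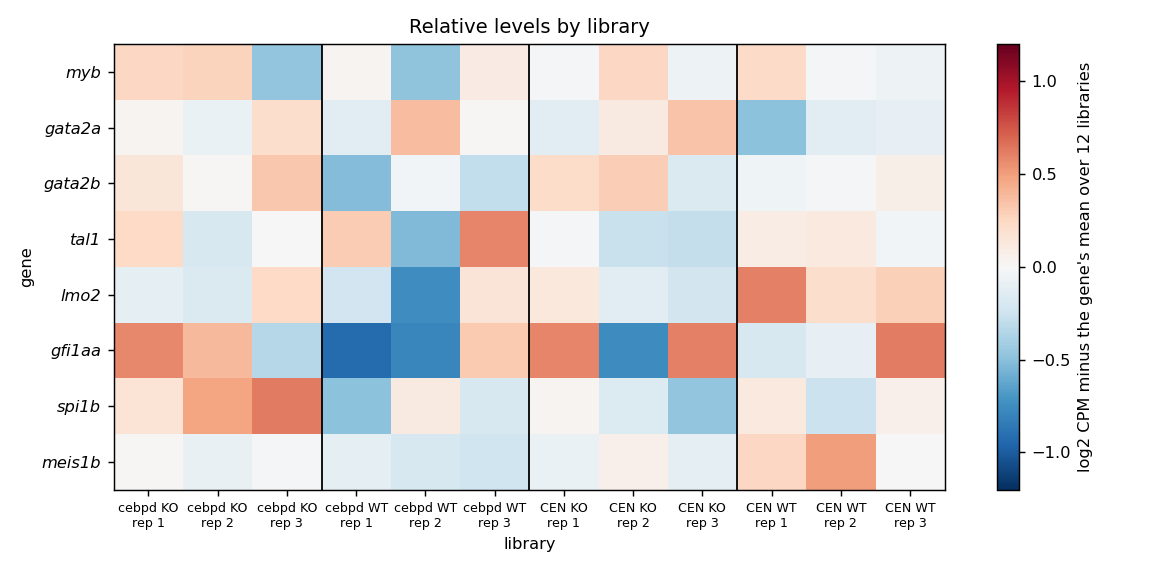
Each row is a tested factor and each column a library, coloured by log2 CPM minus the gene's own mean over the 12 libraries (red higher, blue lower, scale from -1.2 to 1.2). The lmo2 row is red in CEN WT, at 0.60, 0.21 and 0.28, and deepest blue in cebpd WT replicate 2 at -0.75, and the spi1b row is red in cebpd KO at 0.16, 0.48 and 0.62.

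Between the wild types of the experiments 1 factor passed, meis1b. Wild types of both experiments carry the same genotype label, and whether a difference comes from the experiment, the fish stock or the handling cannot be told apart. The 3 CEN WT libraries of meis1b, 50.6 to 71.5 CPM, lay above the 3 cebpd WT libraries, 42.7 to 46.8 CPM. The log2 fold change of CEN WT over cebpd WT was 0.45 ± 0.13 (SE, 95% interval 0.16 to 0.73) with an adjusted p of 0.0277 by edgeR. Of all genes 25% passed in this comparison, so 1 of 8 factors is no more than the background. Of the 8 factors 6 lay above 0, beside 50.7% of all genes, with a median of 0.22, beside 0.01 over all genes. Leaving out 1 library ended the call in 5 cases, giving an adjusted p of 0.0523, 0.0699 and 0.0851 without cebpd WT replicates 1, 2 and 3, and of 0.0703 and 0.137 without CEN WT replicates 1 and 2. Without CEN WT replicate 2 its log2 fold change was 0.30, and over the alternatives its adjusted p ran from 0.0118 to 0.137. For lmo2, CEN WT also lay above cebpd WT without overlap, with a log2 fold change of 0.61 ± 0.21 (SE) and an adjusted p of 0.0563. It passed with DESeq2 and with the stricter filter (adjusted p 0.0281 each), limma-voom (0.044), the replicate block (0.0341), and when either replicate 3 of cebpd KO (0.0308) or replicate 3 of cebpd WT (0.0219) was left out, and over the alternatives its adjusted p ran from 0.0219 to 0.188. In all, 2 of the 8 factors had no overlap between the wild types, beside 46.4% of all genes in either direction and 22.8% with CEN WT above, and the remaining 6 had adjusted p from 0.178 to 0.703. Both knockout comparisons share their wild types with this one.

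Other genes of the blood stem cell programme were tested from lists of relatives, partners and further stem cell genes. None of these lists had a member called by edgeR in either knockout comparison. Over all 12 lists, markers included, edgeR called 0 of 221 genes in each. DESeq2 called 18 in the cebpd comparison, or 8.14%, beside 3.46% of all genes, and 8 in the CEN comparison, or 3.62%, beside 1.16% of all genes. At an unadjusted p under 0.05 by edgeR the relatives had 3 in the cebpd and 1 in the CEN comparison. The partners had 0 and 1, and the further stem cell genes 6 and 7. These counts stand beside 13.4% of all genes in the cebpd and 9.86% in the CEN comparison. Of 20 tested relatives of the factors 10 lay above 0 in the cebpd comparison and 9 in the CEN comparison, with medians of 0.05 and -0.17. Of 22 tested partners and cofactors 12 lay above 0 in the cebpd and 6 in the CEN comparison, with medians of 0.06 and -0.18. The lowest p among them belonged in both to ssbp4, whose protein stabilises the Ldb1 complexes that Lmo2 joins. It had 25.8 ± 2.57 CPM in cebpd KO and 21.3 ± 2.91 CPM in cebpd WT, and 19 ± 0.954 CPM in CEN KO and 31 ± 1.73 CPM in CEN WT (SD, n = 3 each). The log2 fold changes of ssbp4 were 0.28 ± 0.14 (SE, adjusted p 0.431) in the cebpd comparison and -0.71 ± 0.14 (SE, adjusted p 0.14) in the CEN comparison. The Hox cofactor genes pbx3b and pbx1b were next, at 0.48 ± 0.30 (SE, adjusted p 0.54) in the cebpd and -0.79 ± 0.44 (SE, adjusted p 0.598) in the CEN comparison.

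Of 49 further tested stem and progenitor cell genes 31 lay above 0 in the cebpd and 18 in the CEN comparison, with medians of 0.12 and -0.07. Among them ezh2, the histone methyltransferase of Polycomb repression, had 45.8 ± 6.61 CPM in cebpd KO and 69.3 ± 7.55 CPM in cebpd WT (SD, n = 3 each), a log2 fold change of -0.60 ± 0.15 (SE, adjusted p 0.118). The flow-responsive factor gene klf2a had 144 ± 14.8 CPM in cebpd KO and 104 ± 10.8 CPM in cebpd WT (SD, n = 3 each), a log2 fold change of 0.46 ± 0.15 (SE, adjusted p 0.189). In the CEN comparison zbtb16a, a zinc finger factor gene also known as plzf, had 64.6 ± 16.8 CPM in CEN KO and 14.9 ± 5.75 CPM in CEN WT (SD, n = 3 each). Its log2 fold change of 2.12 ± 0.58 (SE) had an adjusted p of 0.236. The lymphoid factor gene ikzf1 had 32.7 ± 3.74 CPM in CEN KO and 46.3 ± 2.52 CPM in CEN WT (SD, n = 3 each), a log2 fold change of -0.50 ± 0.16 (SE, adjusted p 0.296). Between the wild types edgeR called 4 of the 20 relatives, all with CEN WT above, and 5 of the 22 partners, 4 of them with CEN WT above. Of the 49 stem cell genes it called 9, 8 of them with CEN WT above, beside the 25% of all genes. Of all 11840 genes it called 1287 with CEN WT above and 1674 with CEN WT below.

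The remaining marker lists held no gene called by edgeR in either knockout comparison. In the cebpd effect minus the CEN effect edgeR called 1 of the 20 nephron genes, lying below 0 (adjusted p 0.0244), beside 0.0422% of all genes. With the replicate block edgeR called 0 of all genes in this difference. The same held without cebpd KO replicate 1, cebpd WT replicate 2, CEN KO replicate 3, CEN WT replicate 1 or CEN WT replicate 2. Of 16 tested endothelial genes, the cell type in which gata2a, tal1 and lmo2 are also active, 10 lay above 0 in the cebpd and 7 in the CEN comparison, with medians of 0.03 and -0.11, and their summed level was 873 to 1317 CPM in cebpd KO, 931 to 1135 CPM in cebpd WT, 1173 to 1330 CPM in CEN KO and 1287 to 2280 CPM in CEN WT. Of the 20 listed lymphoid genes 10 were in the tables, and ighm, cd79a, cd79b, tcra and trac were among those absent. Of 9 tested lymphoid genes 8 and 5 lay above 0, with medians of 0.23 and 0.05. Of 13 thrombocyte genes 11 and 6 did, with medians of 0.30 and -0.09. Of all genes 48.6% lay above 0 in the cebpd and 50.6% in the CEN comparison. Nephron genes lay above 0 in 3 of 20 in the cebpd and 17 of 20 in the CEN comparison, with medians of -0.25 and 0.20, and interrenal genes in 1 of 9 and 9 of 9, with medians of -0.54 and 0.51. Between the wild types edgeR called 6 of the 16 endothelial and 6 of the 9 lymphoid genes, all with CEN WT above, beside 25% of all genes. Of the thrombocyte genes it called 1 with CEN WT above and 1 below, of the nephron genes 4 and 2, and of the interrenal genes 0 and 1. The endothelial gene stab2 alone had 516 ± 410 CPM in CEN WT (SD, n = 3). The part of these lists' genes in the values of the factors was not tested.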

How the data were processed

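The authors deposited a table of raw counts by gene symbol for every one of the 12 libraries, not normalized. The tools named per the submitters' processing notes are TopHat2 2.1.1, HTSeq and Trim Galore 0.6.4, with danRer10 as the build. For their roles, the annotation and the strand setting the sources used here give nothing, so reads of overlapping genes may have been dropped or shared. The share of reads outside genes was 32.1 to 38.5%, and that of reads matching more than 1 gene was 1.32 to 3.99%. These summary lines were left out.

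The software was DESeq2 1.42.0, limma 3.58.1 and edgeR 4.0.16, run under R 4.3.3. filterByExpr with a minimum count of 10 kept 11840 genes, and libraries were scaled by TMM (factors 0.835 to 1.1). edgeR's quasi-likelihood test had 1 term per group over all 12 libraries, and p-values were adjusted by Benjamini-Hochberg over all genes tested (threshold 0.05). SEs were the absolute log2 fold change divided by the square root of F, and 95% intervals use the test's degrees of freedom. Likeness was Pearson's r of log2 CPM (prior count 2) among genes averaging at least 1 CPM, the 3 highest per factor, passing over identifiers. From each list the 2 genes of lowest p per knockout comparison could be named, and relatives by level. Members and lists were chosen with earlier results of these data known. Alternatives were DESeq2's size factors, no filter, at least 10 CPM in 3 libraries, DESeq2, limma-voom, only the 6 libraries of an experiment, the replicate block, a threshold of 0.1 and leaving out each library. The fit was tested on simulated data. All 9 symbols matched RefSeq's genes for a newer assembly, GRCz12tu, on 9 chromosomes. There the spans of 5 (runx1, gata2a, gfi1aa, spi1b and meis1b) overlap other genes.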

Additional observations from a re-analysis of the deposited data

How the results depend on the processing

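The count of called factors stayed at 0 in both knockout comparisons and in their difference under every alternative run, and the direction and call of spi1b, lmo2 and meis1b in these were kept. So were those of gata2b under the alternatives that tested it. Between the wild types 2 factors passed with the stricter filter, DESeq2, limma-voom, the replicate block and a threshold of 0.1, and 0 to 2 when 1 library was left out. Genes of the lists called in the cebpd comparison numbered 18 with DESeq2, 3 at a threshold of 0.1 and 0 to 4 without 1 library, with 4 when cebpd KO replicate 3 was left out and 1 when cebpd WT replicate 3 was, and in the CEN comparison 8 with DESeq2. The shares of all genes called were 3.46% with DESeq2, 1.13% at that threshold, 1.94% with cebpd KO replicate 3 left out and 0.283% with cebpd WT replicate 3 left out in the cebpd comparison, and 1.16% with DESeq2 in the CEN comparison. With the stricter filter, which removes gata2b and gfi1aa, 2 lay above 0 in the CEN comparison. Leaving out 1 library turned the sign of values near 0. In the cebpd comparison the range was -0.15 to 0.12 for gata2a, -0.013 to 0.37 for myb and -0.42 to 0.081 for tal1. In the CEN comparison it was -0.092 to 0.10 for myb and -0.091 to 0.48 for gfi1aa. For the difference it was -0.021 to 0.37 for myb and -0.18 to 0.33 for tal1, and between the wild types -0.012 to 0.26 for myb and -0.39 to 0.11 for tal1. The cause was not tested. Same-numbered libraries correlated at 0.302, -0.012 and 0.367 between cebpd KO and cebpd WT and at 0.195, -0.024 and 0.164 between CEN KO and CEN WT. Not all exceeded 0.1, the condition set for pairing, so the numbers were not taken to pair libraries, although all 3 did between cebpd KO and CEN KO (0.347, 0.150 and 0.154). The replicate block changed no other call of a factor, with a median over the factors of 0.20 in the cebpd and -0.08 in the CEN comparison. Over all genes it took edgeR's calls from 10 to 6 in the cebpd and from 1 to 5 in the CEN comparison. In the difference it took them from 5 to 0. Other settings moved these medians further: the cebpd one was 0.34 without cebpd WT replicate 3 and 0.13 without cebpd WT replicate 2, and the CEN one -0.19 without CEN KO replicate 1, -0.14 without CEN KO replicate 2 and -0.20 with the stricter filter. Depth limits gfi1aa, at 8 to 27 counts a library.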

Other observations

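The libraries of cebpd WT replicate 2 and CEN KO replicate 2 had the lowest shares of reads in more than 1 gene, 1.32% and 1.35% against 2.37 to 3.99% in the other 10, and also the lowest summed erythroid levels, 10540 and 10433 CPM. In cebpd WT replicate 2 myb, tal1 and lmo2 were at their lowest of the 12 libraries, at 213, 70.0 and 25.2 CPM, and gata2a was at its highest, at 96.4 CPM. In CEN KO replicate 2 they were at 352, 83.9, 38.7 and 80.3 CPM.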
